A study of Mus musculus with 32 samples.

Results

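The RNA carried by polysomes was compared between 4T1 spheroids grown with and without added aspartate, over all genes and within the polysomal libraries alone. 4T1 is a mouse mammary carcinoma cell line that spreads to the lung. ASP shSCR spheroids carried a scramble shRNA and were kept for 5 days in lung-like medium with 700 μM aspartate, and NoASP shSCR spheroids carried the same shRNA and had 0 μM added aspartate. Each condition had 4 spheroid pellets, so 8 of the 32 libraries of the experiment entered the comparison. The other libraries were the sub-polysomal ones of the same pellets and both fractions of ASP shGRIN2D and ASP shDHPS, in which Grin2d or Dhps was silenced in the presence of aspartate. Polysomal RNA was defined as RNA bound by more than 3 ribosomes on a sucrose gradient. Of the 17757 genes in the count table, 17565 had reads in these 8 libraries. The libraries held 20583258, 20559903, 16938122 and 19323140 reads in ASP shSCR replicates 1 to 4, and 19357595, 21649049, 19270667 and 17410032 in NoASP shSCR replicates 1 to 4. Levels are given as CPM, counts scaled to a common library size with TMM factors within these 8 libraries. The comparison was also made without ASP shSCR replicate 1, which left 7 libraries and 17508 genes.

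Messenger RNA that is being translated by several ribosomes at once travels deep into a sucrose gradient, whereas free mRNA and mRNA with few ribosomes stay near the top. The level of an mRNA among polysomes therefore depends both on how much of it a cell holds and on how much of that is translated. Aspartate is a building block of proteins and nucleotides and can act on NMDA receptors, to which Grin2d contributes a subunit. The translation factor eIF5A carries hypusine, an amino acid made on it from the polyamine spermidine by DHPS and then DOHH, and it helps ribosomes through difficult stretches of sequence. The study asked whether added aspartate acts through NMDA receptor signaling, CREB and hypusinated eIF5A on translation programs such as TGF-β signaling and the collagen-rich matrix of lung metastases. Because the libraries come from whole pellets, fewer cells of a type and less RNA per cell cannot be told apart.

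ASP shSCR replicate 1 stood apart from the other polysomal libraries. A fraction position was computed for each library from 11046 genes that had 10 or more reads in all 32 libraries. On this scale 0 stands for the average sub-polysomal and 1 for the average polysomal library of the knockdown spheroids. ASP shSCR replicates 1 to 4 lay at 0.387, 0.787, 1.02 and 0.986. NoASP shSCR replicates 1 to 4 lay at 1.02, 0.905, 0.964 and 1.17. The polysomal libraries of the knockdown spheroids ranged from 0.803 to 1.15 and all sub-polysomal ones from −0.0921 to 0.131, so that both ASP shSCR replicates 1 and 2 lay below the knockdown polysomal libraries, replicate 1 by far the more. ASP shSCR had a mean position of 0.795 ± 0.291 (SD, n = 4), against 1.01 ± 0.114 (SD, n = 4) for NoASP shSCR. Without replicate 1, which was set aside for its position, the ASP shSCR mean was 0.931 ± 0.126 (SD, n = 3). An exact test of the positions between the conditions gave p = 0.257 with the 8 libraries and p = 0.514 without replicate 1. The smallest p it could reach was 0.0286 and 0.0571. As replicate 1 was set aside for its position, the second value is a description. Differences with the position as a covariate, given below, are descriptions too, because it was computed from the counts of the same libraries. If aspartate itself moved the position, this covariate would also take out part of the aspartate difference.

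**Figure D1:**
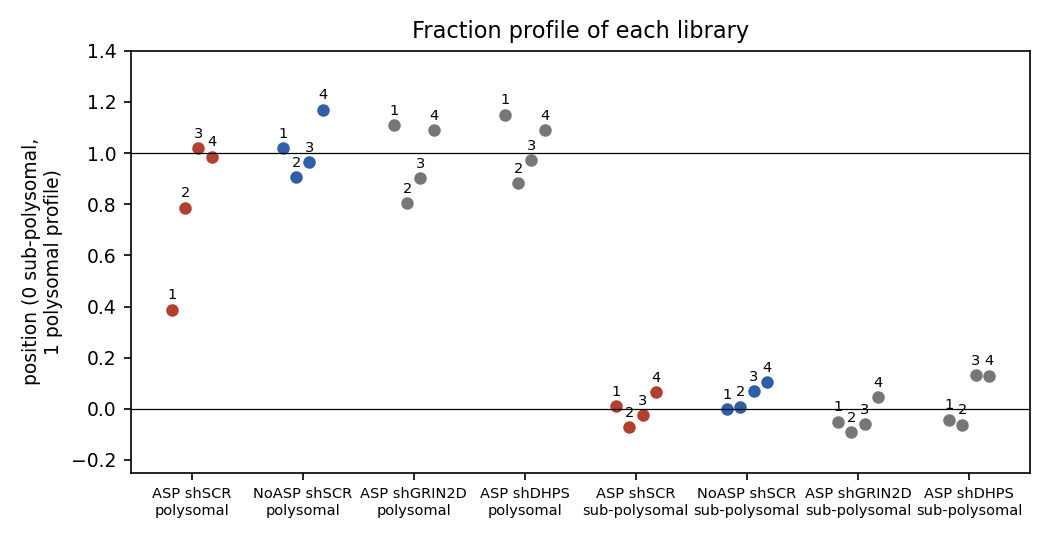
Position of every library between the average sub-polysomal (0) and polysomal (1) library of the knockdown spheroids, with 1 point per library and its replicate number above it. ASP shSCR replicate 1 lies at 0.387, between the sub-polysomal libraries and the other polysomal libraries.

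The cells carried the markers of mammary epithelial tumour cells in every library. All 8 epithelial markers were present, and Epcam, an epithelial adhesion protein, ran from 546.4 to 966.6 CPM over the 8 libraries. Their summed level was 8602.3, 4715.9, 6712.2 and 7272.3 CPM in ASP shSCR and 7107.4, 4689.3, 6196.8 and 9029.5 in NoASP shSCR, where Krt8, a keratin, contributed most in 8 of 8 libraries. Of the 8 leukocyte markers, 4 were among the 17757 genes analysed here, which the authors had filtered for expression, and Ptprc, the pan-leukocyte phosphatase CD45, stayed between 0.10 and 0.62 CPM. Of the 5 endothelial markers Pecam1 alone was among them, with 0.10 to 0.40 CPM, and of the 3 neuron markers Map2 alone, with 12.31 to 21.84. Of the 7 fibroblast markers Pdgfra, Thy1 and Col1a1 were analysed, and Thy1, a surface glycoprotein, made up most of a sum of 136.18, 249.72, 206.14 and 159.13 CPM in ASP shSCR and 195.13, 238.04, 146.97 and 183.17 in NoASP shSCR. Dcn and Lum, matrix proteins that define fibroblasts, were not analysed here. The sums of the groups overlapped. The summed leukocyte markers, nearly all of them Cd68, a lysosomal protein, were 11.97, 13.84, 11.07 and 13.32 CPM in ASP shSCR and 9.27, 11.25, 11.96 and 15.68 in NoASP shSCR, which overlapped as well.

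No gene passed the threshold between ASP shSCR and NoASP shSCR polysomes. In the fit of the 8 libraries, 0 of 17565 genes (0%) had an edgeR adjusted p under 0.05, with 840 genes higher and 117 lower in ASP shSCR at an unadjusted p under 0.05, and the lowest adjusted p was 0.888. Without ASP shSCR replicate 1 the count was again 0 of 17508 genes (0%), with 145 higher and 125 lower at an unadjusted p under 0.05, and the lowest adjusted p was 0.0608 (Gm49510). DESeq2's Wald test called 1 gene in the 8 libraries and 2 in the 7. Each of these 3 genes had 0 reads in at least 3 of the 8 libraries, and their reads are given with the processing alternatives. The excess of higher genes at an unadjusted p under 0.05 was thus much smaller once ASP shSCR replicate 1 was left out. Among genes with a mean of at least 50 reads it was 610 higher and 20 lower in the 8 libraries, and 39 higher and 15 lower in the 7. Among the 10906 genes with a mean of at least 50 reads, 544 were more than 2-fold (log2 difference over 1) higher in ASP shSCR and 2 more than 2-fold lower in the fit of 8 libraries. Without replicate 1 these counts were 6 and 7.

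The libraries bounded most differences to less than 2-fold. Without ASP shSCR replicate 1, the median standard error of a log2 difference was 0.225, and the 95% interval of 10077 of these genes (92.4%) lay between a log2 difference of −1 and 1. With all 8 libraries the median standard error was 0.243, and 8678 genes (79.6%) had such an interval. The share in the 7 libraries was 76% of genes with 50 to 200 reads, 95.1% with 200 to 1000, 97.3% with 1000 to 5000 and 96.7% with over 5000. The biological coefficient of variation between replicates was 0.371 in the 8 libraries and 0.264 in the 7.

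**Figure D2:**
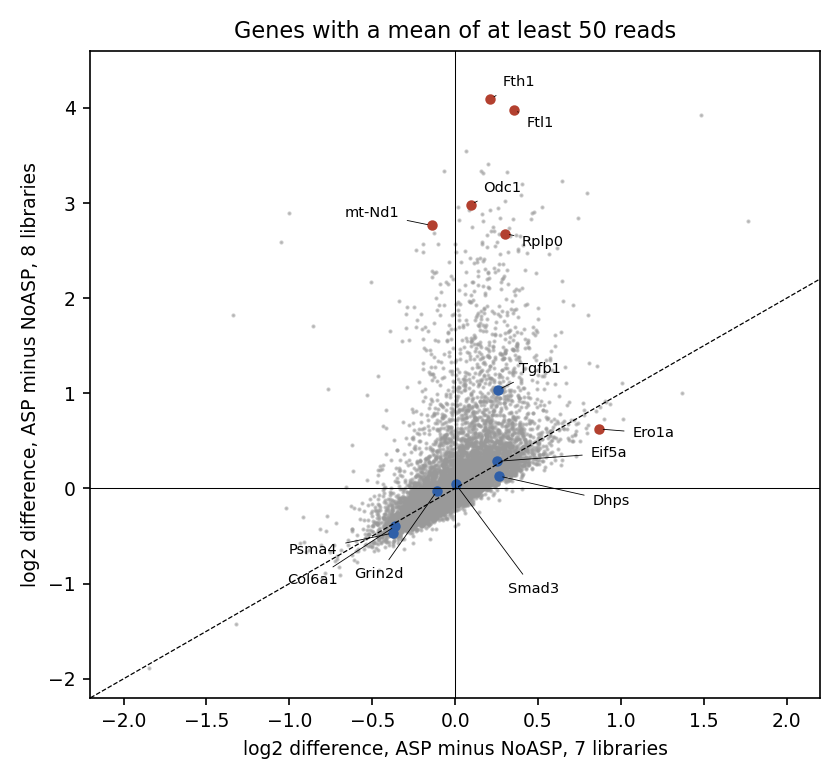
Log2 difference in polysomal RNA between ASP shSCR and NoASP shSCR for each gene with a mean of at least 50 reads, in the fit of 7 libraries without ASP shSCR replicate 1 (x axis) and in the fit of 8 libraries (y axis), with equal values on the dashed line and 3 genes outside the axes. The cloud stretches upwards to Fth1 at 4.09 in the 8 libraries, where the 7 libraries give 0.21.

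The mRNAs of the receptor and of the hypusination enzymes were measured first, and none of them passed the test. Grin2d, the NMDA receptor subunit (ENSMUSG00000002771, chromosome 7 of GRCm38 from 45831883 to 45878378), had 4.22, 2.78, 4.17 and 3.54 CPM in ASP shSCR and 4.29, 2.96, 4.06 and 3.63 in NoASP shSCR. Its values interleaved, on 61 to 86 reads per library, and the log2 difference was −0.11 in the 7 libraries with a 95% interval from −0.73 to 0.51. In ASP shGRIN2D polysomes, Grin2d lay between 1.11 and 2.45 CPM on the scale of all 16 polysomal libraries, below the range of 2.80 to 4.26 in ASP shSCR on that scale. A further pair of glutamate receptor genes had a mean of at least 50 reads. These were Grik5, a kainate receptor subunit with a log2 difference of 0.19 in the 7 libraries, and Grina, a receptor-associated protein with 0.24. With the position of each library on the fraction scale as a covariate in the 7 libraries, they differed by 0.08 and 0.02.

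Eif5a, the factor that carries hypusine (ENSMUSG00000078812, chromosome 11 from 69916714 to 69921958), had 1993, 2260, 1782 and 1622 CPM in ASP shSCR and 1832, 1669, 1477 and 1307 in NoASP shSCR. The groups overlapped, and the log2 difference was 0.29 in the 8 and 0.25 in the 7 libraries (standard error 0.20 and 0.19). Dhps, the enzyme of the first step (ENSMUSG00000060038, chromosome 8 from 85071757 to 85075162), had 23.2, 45.1, 35.9 and 32.2 CPM in ASP shSCR and 34.3, 36.4, 26.9 and 27.0 in NoASP shSCR. Its log2 difference was 0.13 in the 8 and 0.26 in the 7 libraries, where the 95% interval ran from −0.17 to 0.70. In ASP shDHPS polysomes it was 8.84 to 13.6 CPM, below every scramble library. Dohh, the hydroxylase of the second step (ENSMUSG00000078440, chromosome 10 from 81384428 to 81388352), differed by 0.06 and 0.16, and Eif5a2, the minor isoform (ENSMUSG00000050192, chromosome 3 from 28781276 to 28798846), by 0.16 and 0.12 in the 8 and 7 libraries. All 4 genes of the hypusine pathway thus had a positive difference in both fits, with a median of 0.15 and 0.20, and none passed the test. Without ASP shSCR replicate 2, Dhps differed by −0.03 and Dohh by −0.02, and Eif5a differed by 0.12 in the 7 libraries with the fraction position as a covariate. The median over all genes with a mean of at least 50 reads was 0.00075 and −0.02.

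**Figure D3:**
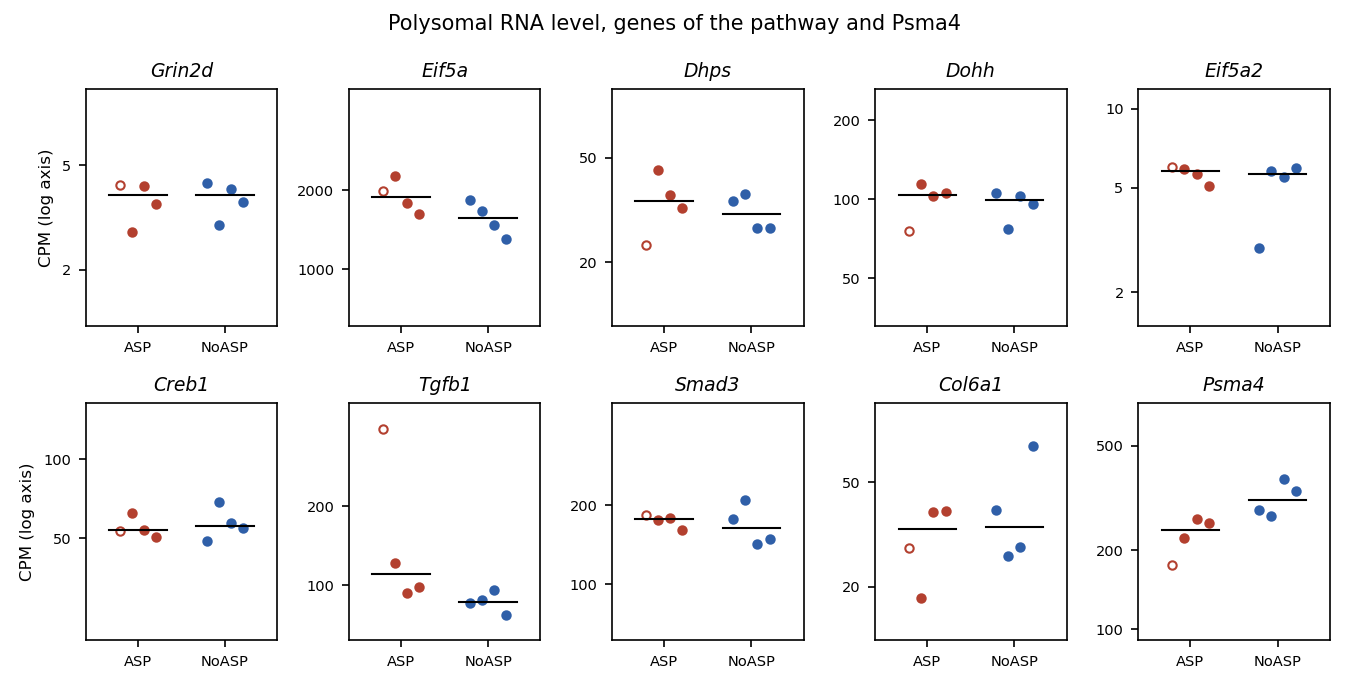
Polysomal RNA levels in CPM on a log axis, with 1 point per library in order of replicate number and a line at the median of each group. The open point is ASP shSCR replicate 1, which lies far above the rest for Tgfb1, and Psma4 is the gene here whose groups do not overlap.

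Of the 12 measured genes of polyamine metabolism, which supplies spermidine for hypusine, none passed the test. Odc1, the rate-limiting ornithine decarboxylase, had 4807 CPM in ASP shSCR replicate 1 and 182, 153 and 213 in the other 3, against 140, 134, 254 and 149 in NoASP shSCR. The log2 difference of Odc1 was 2.98 in the 8 and 0.09 in the 7 libraries. Azin2, which keeps ornithine decarboxylase from being degraded, was 101, 27.4, 8.22 and 13.1 CPM in ASP shSCR and 9.67, 12.6, 9.67 and 7.2 in NoASP shSCR. Here replicate 2 was high as well, and 0.71 was left of the log2 difference of 1.93 once replicate 1 was out. It was 0.20 with the fraction position as a covariate in the 8 and 0.21 in the 7 libraries. Oaz2, an antizyme that marks ornithine decarboxylase for degradation, differed by 0.38 in the 7 libraries, by 0.11 in them with the fraction position as a covariate, and by 0.19 without ASP shSCR replicate 2.

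For CREB, the transcription factor that calcium and cAMP signals activate, its own mRNA and a list of immediate early genes were measured. That list was not made of CREB targets alone. The study assessed CREB by its phosphorylation, which these RNA levels do not measure. Creb1 (ENSMUSG00000025958, chromosome 1 from 64532645 to 64604548) had 53.5, 62.4, 53.7 and 50.5 CPM in ASP shSCR and 48.8, 68.5, 57.1 and 54.5 in NoASP shSCR, a log2 difference of −0.06 in both fits. Of the 8 genes of the CREB family and its coactivators, 0 passed, and their median difference was −0.03 in the 8 and −0.05 in the 7 libraries. The 31 measured immediate early genes had a median of 0.07 and −0.23, so that the sign depended on ASP shSCR replicate 1. With that position as a covariate it was −0.06 and 0.01. Egr1, a zinc finger factor induced within minutes of a stimulus, had 61.2, 16.1, 38.3 and 23.4 CPM with and 53.7, 22.7, 30.7 and 31.7 without aspartate. Jund, an AP-1 subunit, had 2432 CPM in replicate 1 and 132 to 206 in the other ASP shSCR libraries, against 135 to 162 in NoASP shSCR.

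For TGF-β signaling, the question was whether polysomes held more of its mRNAs with aspartate. Tgfb1, the ligand (ENSMUSG00000002603, chromosome 7 from 25687002 to 25705077), had 396, 121, 93.7 and 98.9 CPM in ASP shSCR and 85.5, 87.7, 95.9 and 77.3 in NoASP shSCR. NoASP shSCR replicate 3 lay above the lowest ASP library, and the other ASP libraries were higher than all NoASP libraries. The log2 difference of Tgfb1 was 1.04 in the 8 libraries, where its standard error was 0.42 and its edgeR adjusted p 0.888. In the 7 libraries it was 0.26, with a standard error of 0.19 and an edgeR adjusted p of 0.999. The values were 0.09 and 0.15 with the fraction position as a covariate. Smad3, which carries the signal to the nucleus (ENSMUSG00000032402, chromosome 9 from 63646767 to 63757994), had 184, 176, 180 and 162 CPM with and 178, 211, 143 and 149 without aspartate. The difference of Smad3 was 0.04 and 0.01, with an interval from −0.41 to 0.42 in the 7 libraries.

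Among the 21 measured ligands, latency proteins and receptors of the pathway, 0 passed and the median difference was −0.11 in the 8 and −0.09 in the 7 libraries, but 0.02 and −0.01 with the fraction position as a covariate. Inhbb, the β-subunit of activin B, was the member whose groups did not overlap, with 5.88, 2.95, 6.30 and 6.94 CPM in ASP shSCR and 10.1, 7.15, 7.54 and 9.72 in NoASP shSCR. Its log2 difference was −0.64 and −0.69 (standard error 0.29 and 0.30), without passing the test. Over all genes counted, 45 of 10906 (0.413%) were lower without overlap in the 8 libraries, and 87 of 10905 (0.798%) in the 7. Ltbp3, a protein that holds latent TGF-β in the matrix, differed by −0.05 and 0.08. The 15 SMADs and SMAD repressors had a median of 0.08 and −0.01, and the 17 TGF-β target genes one of 0.01 and −0.04. Among these targets, Fn1, fibronectin, differed by −0.23 and Timp1, a protease inhibitor, by −0.08 in the 7 libraries, and by 0.0074 and −0.06 with that covariate.

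No collagen mRNA passed the test, and their median was negative in the 8 and the 7 libraries but not with the fraction position as a covariate in the 7. Of 25 collagen chain genes with reads, 11 had a mean of at least 50 reads, and their median log2 difference was −0.39 in the 8 and −0.36 in the 7 libraries. In the 7 libraries, 10 of the 11 had a negative difference. Col6a1, a chain of the microfibril-forming collagen VI (ENSMUSG00000001119, chromosome 10 from 76708792 to 76726168), had 28.0, 18.2, 38.5 and 39.0 CPM with and 39.1, 26.3, 28.4 and 68.8 without aspartate. NoASP shSCR replicate 4 was the highest and ASP shSCR replicate 2 the lowest library, and the groups overlapped. Col4a1, of basement membranes, had 260, 124, 381 and 281 CPM against 336, 224, 248 and 632, and Col18a1, the most abundant chain per length, differed by −0.20 in the 7 libraries and by 0.22 in them with the fraction position as a covariate. The summed level of all collagen chains was 853, 564, 1350 and 1150 CPM with and 1240, 789, 928 and 2120 without aspartate, so NoASP shSCR replicate 4 held the most. Col1a1, of fibrillar collagen I (ENSMUSG00000001506, chromosome 11 from 94936224 to 94953042), had 0 to 12 reads per library and was near the limit of detection. In the sub-polysomal libraries the median of the 11 chains was 0.14, on the other side of 0. With the position of the libraries on the fraction scale as a covariate, the collagen median was −0.05 in the 8 and 0.11 in the 7 libraries, and without NoASP shSCR replicate 4 it was −0.04.

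Genes that consume or carry aspartate were measured next. Of 18 genes of aspartate transport and use, 0 passed, and the median difference was −0.09 and −0.14 in the 8 and 7 libraries. Cad, which joins aspartate to carbamoyl phosphate in pyrimidine synthesis, had 42.5, 28.4, 55.2 and 61.6 CPM with and 63.3, 34.4, 54.4 and 104 without aspartate. Got1, the cytosolic aspartate aminotransferase, differed by −0.19 and Dars, the aspartyl-tRNA synthetase, by −0.21 in the 7 libraries, and by 0.04 and −0.10 with the fraction position as a covariate. The 24 genes of nucleotide synthesis had a median of −0.17 and −0.16, and 3 of them had a positive difference in the 7 libraries. Among the 20 cytosolic aminoacyl-tRNA synthetases the median was −0.17 and −0.15, and among the 19 amino acid transporters −0.07 and −0.06. Slc1a5, a neutral amino acid transporter, had 79.8, 25.2, 83.4 and 66.4 CPM against 85.7, 37.8, 68.5 and 122. In Cad and in Slc1a5, replicate 2 was the lowest library of both conditions. With the fraction position as a covariate in the 7 libraries, the medians of aspartate use, the synthetases and the transporters turned to 0.06, 0.11 and 0.10, and that of nucleotide synthesis was −0.03.

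The ATF4 program, which cells turn on when amino acids run short, was measured in 32 genes. They had a median difference of 0.09 in the 8 and 0.06 in the 7 libraries, and 0 passed. Eif4ebp1, an inhibitor of cap-dependent initiation and an ATF4 target, had 209, 182, 66.3 and 93.0 CPM with and 69.6, 88.8, 83.4 and 70.1 without aspartate. Ddit3, which encodes CHOP, had 23.5, 27.9, 7.56 and 9.93 CPM against 7.72, 9.54, 13.1 and 7.26. In both genes ASP shSCR replicates 1 and 2 were the high libraries, and the log2 differences in the 7 libraries were 0.53 and 0.67 (standard error 0.28 and 0.37). With the fraction position as a covariate, Eif4ebp1 differed by 0.15 and Ddit3 by 0.07 in the 7 libraries. Phgdh, the entry enzyme of serine synthesis, differed by 0.33 in the 8 and −0.17 in the 7 libraries, and by −0.04 and 0.18 with that covariate.

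The genes of lowest p among those with a mean of at least 50 reads did not pass the test after adjustment over all genes. Pla2g12a, a secreted phospholipase A2, had 163, 12, 7.56 and 9.78 CPM in ASP shSCR and 5.18, 5.56, 7.18 and 4.39 in NoASP shSCR. All 4 ASP libraries lay above all NoASP libraries, and the log2 difference was 3.10 in the 8 and 0.80 in the 7 libraries (standard error 0.91 and 0.26, edgeR adjusted p = 0.888 and 0.999). Tet2, a 5-methylcytosine dioxygenase, had 4.15, 6.35, 6.63 and 8.28 CPM against 3.84, 4.79, 4.42 and 2.99. Without replicate 1 its groups did not overlap, with a log2 difference of 0.80 (standard error 0.26). Ldlrad4, a membrane protein that restrains TGF-β signaling by binding SMADs, had 7.40, 9.08, 7.18 and 6.69 CPM with and 4.59, 5.93, 3.59 and 4.80 without aspartate. Its groups did not overlap and its log2 difference was 0.68 in both fits (standard error 0.24 and 0.26). Values of Tet2 and Ldlrad4 with the fraction position as a covariate were 0.80 and 0.64 in the 8 libraries. Ubtd2, a ubiquitin-domain protein, had a log2 difference of 1.82 in the 8 and 0.80 in the 7 libraries. With the covariate the 8 libraries gave 0.45 for Pla2g12a and 0.56 for Ubtd2.

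On the lower side, Tspyl2, a nucleosome assembly protein family member, had 2.77, 2.78, 3.67 and 3.04 CPM with and 4.49, 4.95, 6.45 and 4.68 without aspartate. Its groups did not overlap, and the log2 difference was −0.75 in the 8 and −0.71 in the 7 libraries (standard error 0.26 and 0.28). Ggcx, the vitamin K-dependent carboxylase, differed by −0.64 in the 8 and −0.88 in the 7 libraries, with NoASP shSCR replicate 4 at 12.6 CPM and the other NoASP libraries at 4.99 to 6.97. Without NoASP shSCR replicate 4 it differed by −0.34, and without ASP shSCR replicate 2 by −0.39. Ftl1, a ferritin chain, is described with ASP shSCR replicate 1. Among genes with a mean of at least 50 reads, the others of lowest p were Ftl1-ps1 and Gm20431 on the higher side. On the lower side they were Gm15387, Gm3435, Gm11127 and Gm15853. These 6 are pseudogenes or predicted genes. Reads of such genes may be shared with near-identical copies, so their values are uncertain. Gm15387 had 8.65, 11.2, 18.4 and 14.6 CPM with and 20.4, 24.9, 22.1 and 21.7 without aspartate. Gm20431 had 84.1 and 7.68 CPM in ASP shSCR replicates 1 and 4 and 0 reads in the other 6 libraries, and in the sub-polysomal libraries it had 17.7 to 56.7 CPM in ASP shSCR and 0, 17.7, 7.39 and 11.3 in NoASP shSCR, so it was detected without aspartate as well.

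Genes whose groups did not overlap were few. With 8 libraries, 72 of 10906 genes (0.66%) lay higher in all ASP libraries than in any NoASP library, and 45 (0.413%) lay lower. In the 7 libraries, scaled among themselves, 93 of 10905 genes (0.853%) were apart on the higher and 87 (0.798%) on the lower side. If the libraries were interchangeable, a share of 0.0286 of genes would on average be apart in either direction in the 8, and 0.0571 in the 7. The genes found apart did not exceed these shares, so lying apart is only a description of a gene. The proteasome, which degrades ubiquitinated proteins, had 4 of its 37 measured subunits on the lower side in both fits. These were Psma2, Psma4, Psma5 and Psma6, structural α-subunits of the 20S core. Psma4 had 177, 223, 262 and 255 CPM in ASP shSCR and 286, 270, 375 and 338 in NoASP shSCR, and its log2 difference was −0.47 in the 8 and −0.37 in the 7 libraries (standard error 0.20 and 0.19). Psma6 had 268, 362, 373 and 355 CPM against 400, 412, 488 and 458, a log2 difference of −0.37 and −0.29. Psma2 and Psma5 differed by −0.25 and −0.20 in the 7 libraries. With the fraction position as a covariate, the difference of Psma4 was −0.30 in the 8 and −0.31 in the 7 libraries. The median over the 37 subunits was −0.14 in the 8 and −0.12 in the 7 libraries, and with that covariate 0.01 in the 8 and −0.05 in the 7. Of the subunits none passed the test, and Psma7, the most abundant subunit per length, differed by 0.15 in the 7 and by −0.10 in them with the covariate.

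Genes of DNA replication and of ribosomes gave most of the other listed genes that were apart, beside Inhbb. Gins1 and Orc6, parts of the replicative helicase and of the origin recognition complex, were lower in all ASP libraries. Gins1 had 15.4, 30.1, 28.3 and 30.2 CPM with and 32.1, 34.4, 39.9 and 33.3 without aspartate, and Orc6 differed by −0.22 in the 7 libraries. The 50 genes of S phase had a median difference of −0.17 and −0.18, the 45 genes of G2/M one of −0.16 and −0.12. With the fraction position as a covariate, the S phase median was −0.04 and 0.0041 and the G2/M median −0.02 and 0.01 in the 8 and 7 libraries. Of 82 cytosolic ribosomal protein genes, Rpl7, Rpl9 and Rps27a were apart on the lower side in the 7 libraries, and none was in the 8. Rpl7 had 1465, 1673 and 1632 CPM in ASP shSCR replicates 2 to 4 and 1739, 1734, 2591 and 2284 in NoASP shSCR. Ribosomal protein genes have many processed pseudogenes, so small differences in them are uncertain. Of 78 mitochondrial ribosomal protein genes, Mrpl16, Mrpl22 and Mrps30 were apart on the lower side in the 7 libraries. The medians were −0.02 for the cytosolic and 0.03 for the mitochondrial ribosomal proteins, and −0.14 and −0.08 with the fraction position as a covariate. Snhg16, a snoRNA host RNA, and Zfp518b, a zinc finger gene, were apart on the higher side in the 7 libraries and Zfp809 on the lower side. For Rpl9 and Zfp809 the groups overlapped on the scale of the 8 libraries, also without replicate 1.

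**Figure D4:**
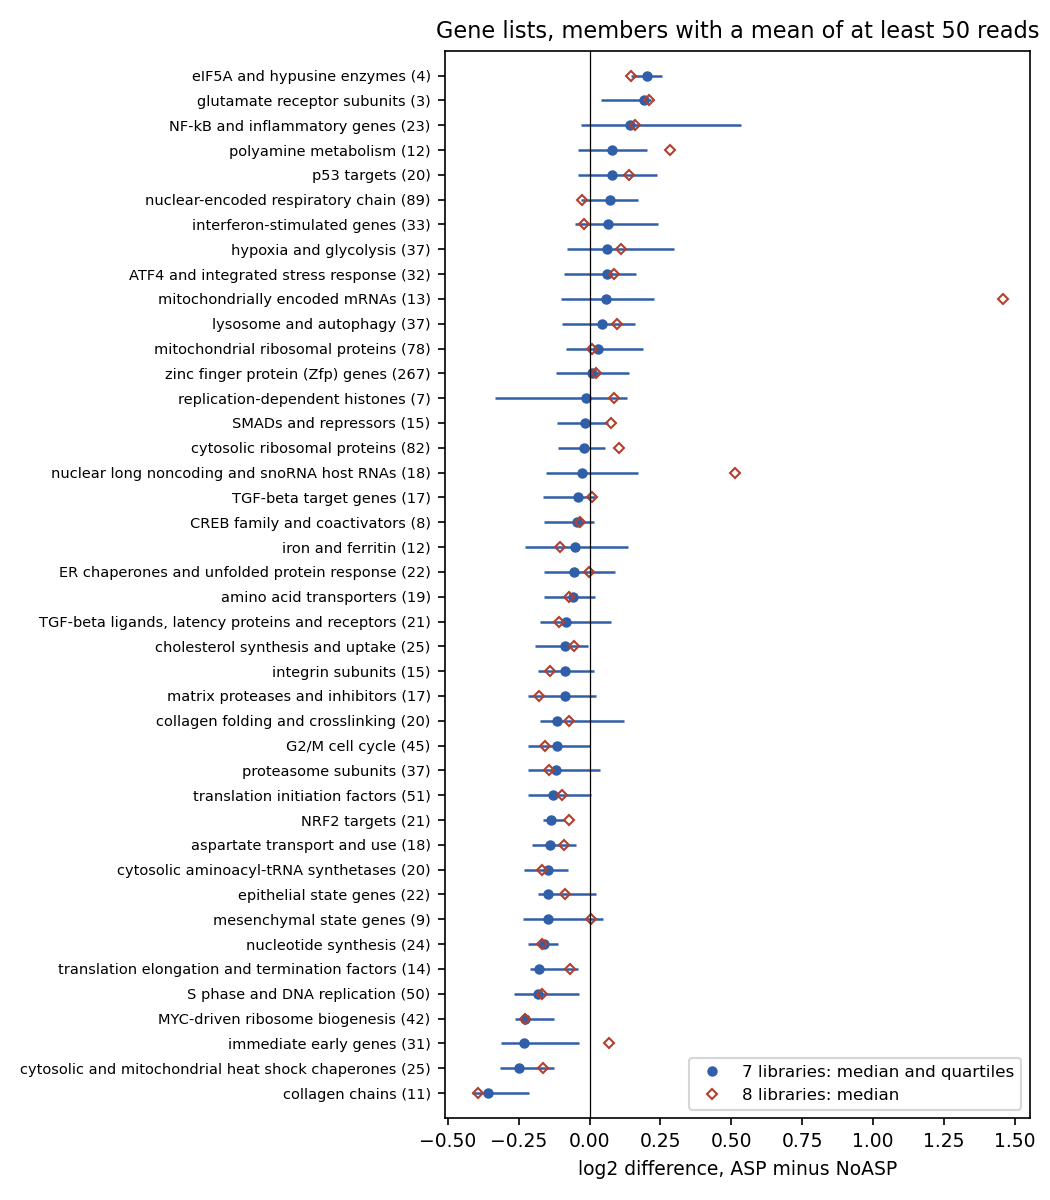
Median log2 difference between ASP shSCR and NoASP shSCR polysomes for the members of each gene list, with the number of members counted in brackets, in the 7 libraries (filled points, with lines from the lower to the upper quartile) and in the 8 libraries (open diamonds). Mitochondrially encoded mRNAs lie at 1.46 in the 8 and 0.06 in the 7 libraries, and collagen chains are lowest in both, although their median is 0.11 with the fraction position as a covariate in the 7 libraries.

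Several lists of growth genes lay slightly below 0 in both fits. The 42 genes of ribosome biogenesis driven by MYC had a median of −0.23 in both, with 3 of them positive in the 7 libraries. With 1 other library left out of the 8, this median was −0.05 (without ASP shSCR replicate 2) or −0.04 (without NoASP shSCR replicate 4). Myc itself had 92.8, 43.0, 121 and 131 CPM with and 124, 84.9, 125 and 200 without aspartate, and Npm1, a nucleolar chaperone, differed by −0.29 in the 7 libraries. The 25 heat shock chaperones had a median of −0.17 and −0.25, and Hspa8, the constitutive HSP70, had 4510, 1664, 2593 and 2894 CPM against 2754, 1682, 3202 and 3837. In Myc and Hspa8, as in Cad, the lowest library of each condition was replicate 2. Translation elongation and termination factors had a median of −0.07 and −0.18 and initiation factors of −0.10 and −0.13. Eef1a1, the main elongation factor, had 14950, 4932, 5755 and 8308 CPM with and 6267, 4893, 7277 and 10180 without aspartate. The medians of ribosome biogenesis and of the chaperones moved towards 0 with the fraction position as a covariate, where ribosome biogenesis had −0.02 in the 8 and 0.09 in the 7 libraries, and the chaperones −0.11 and −0.01. In the 7 libraries with that covariate, Npm1 differed by −0.13, and the medians of initiation and of elongation and termination factors were 0.01 and −0.02. On the other side of 0 in the 7 libraries were the 89 nuclear-encoded respiratory chain genes, with a median of 0.07, and the 23 NF-κB genes, with 0.14. In the 8 libraries these medians were −0.03 and 0.16, and with ASP shSCR replicate 2 alone left out of the 8 they were −0.20 and −0.05. None of the 42 lists held a gene that passed the test in either fit.

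Most differences that were large in the 8 libraries were not seen without ASP shSCR replicate 1. Of the 544 genes more than 2-fold higher in the 8 libraries, 5 were so in both fits, namely Ankrd37, Ftl1-ps1, Gm20431, Entpd4 and Gm21811. Ftl1-ps1 had 467.2, 11.33, 8.72 and 55.73 CPM in ASP shSCR and 6.58 to 12.64 in NoASP shSCR. In the 7 libraries, ASP shSCR replicate 4 alone was above the NoASP range for Ftl1-ps1. Both genes that were more than 2-fold lower, Lars2 and Gm11127, were so in the 7 libraries too. Lars2 differed by −1.43 in the 8 and −1.32 in the 7 libraries, and Entpd4 by 2.82 and 1.76. With the fraction position as a covariate in the 7 libraries they differed by −1.43 and 1.77, and without ASP shSCR replicate 2 by −1.38 and 3.15. Neither Lars2 nor Entpd4 passed the test. Gm11127 had 2.98, 2.69, 2.85 and 5.59 CPM in ASP shSCR and 1.74, 35.65, 7.75 and 6.85 in NoASP shSCR. NoASP shSCR replicate 2 was thus far above the rest for it. Ferritin was the clearest case of a difference not seen without ASP shSCR replicate 1. Fth1 and Ftl1 encode the heavy and light chains of this iron store, and their mRNAs carry an iron-responsive element in the 5′ untranslated region, a hairpin that iron regulatory proteins bind to keep ribosomes off when iron is scarce. Fth1 (ENSMUSG00000024661, chromosome 19 from 9980598 to 9985098) had 62690 CPM in replicate 1 and 1230, 951 and 1219 in the other ASP shSCR libraries, against 601, 919, 1256 and 1093 in NoASP shSCR. It took 4.4% of all reads in replicate 1 and 0.0623% to 0.136% in the other 7 polysomal libraries. Ftl1 (ENSMUSG00000050708, chromosome 7 from 45457944 to 45459884) took 3.1% and 0.0578% to 0.113%. The log2 difference was 4.09 for Fth1 and 3.98 for Ftl1 in the 8 libraries and 0.21 and 0.35 in the 7 (standard error 0.23 and 0.20). In the 16 sub-polysomal libraries of all conditions Fth1 ran from 3880 to 12800 RPM (CPM without the TMM factor), so the 44000 of replicate 1 lay above all of them. The elements are shown because these were the most abundant mRNAs of replicate 1, in 30 bases of each 5′ untranslated region as annotated in GENCODE, with the CAGUG of the loop in capitals.
Fth1: gguuuccugcuucaaCAGUGcuugaacgga
Ftl1: ugugucuugcuucaaCAGUGuuugaacgga
Slc40a1: uuccaacuucagcuaCAGUGuuagcuaagu
Slc40a1, the iron exporter ferroportin, is shown as a gene with the same kind of element. It had 3.87, 3.79, 2.47 and 4.69 CPM in ASP shSCR and 3.19, 2.72, 3.48 and 2.63 in NoASP shSCR, so that replicate 1 was not high for it. Its level was low, and whether the element has a part in the ferritin values was not tested. The letters CNNNNNCAGTGN, which describe only part of the element, occur in the 5′ untranslated region of 1645 of 13273 genes (12.4%) on the sense strand.

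**Figure D5:**
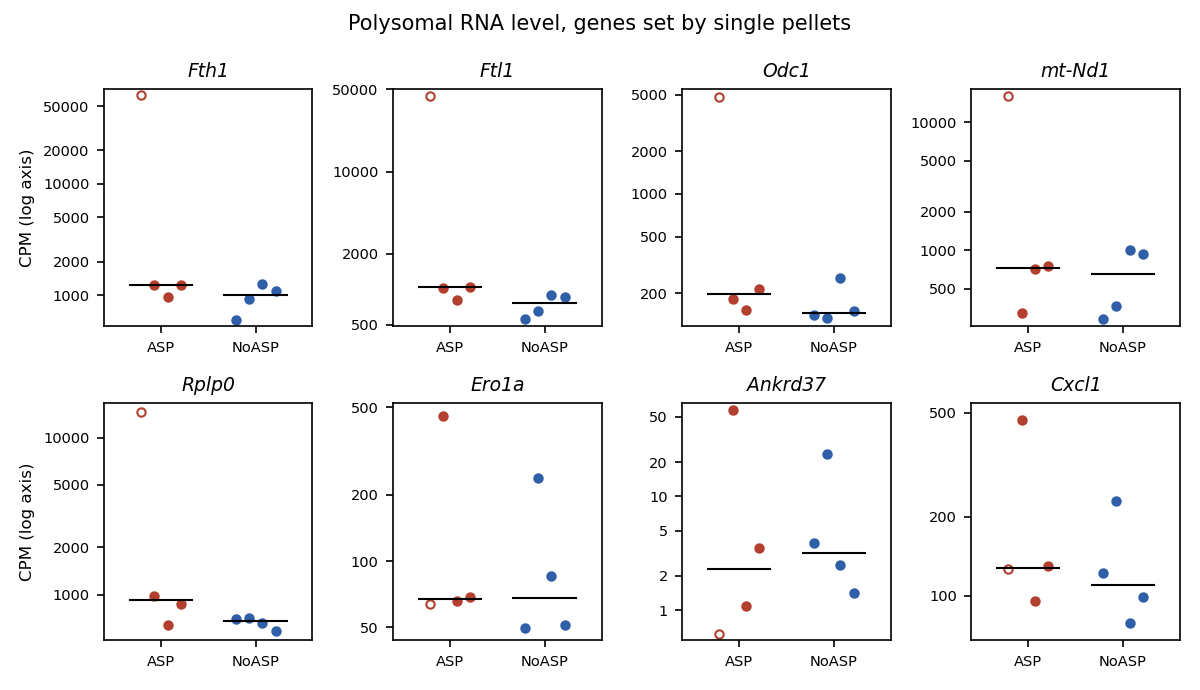
Polysomal RNA levels in CPM on a log axis, with 1 point per library in order of replicate number and a line at the median of each group. The open point, ASP shSCR replicate 1, lies far above the rest for Fth1, Ftl1, Odc1, mt-Nd1 and Rplp0, and the second point of both groups is the highest for Ero1a, Ankrd37 and Cxcl1.

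Ferritin was part of a wider set in this library. Of 10906 genes, 246 (2.26%) had at least 4 times as high an RPM in ASP shSCR replicate 1 as in any of the other 7 polysomal libraries, and 17 had at least 4 times lower an RPM than the lowest of them. For 237 of the 246, all the other 7 libraries lay below all 16 sub-polysomal libraries, so these were mRNAs with more reads in the sub-polysomal fraction. For 208 of the 246, replicate 1 lay above all 16 sub-polysomal libraries as well. Tle5, a Groucho family corepressor, had 2900 RPM in replicate 1, 110 to 184 in the other 7 and 517 to 1310 in the sub-polysomal libraries. Rplp0, of the ribosomal stalk, had 14500 CPM in replicate 1 and 584 to 975 in the other 7. The 246 genes included 5 of the 13 mitochondrially encoded mRNAs. These mRNAs are translated inside mitochondria, and their median log2 difference was 1.46 in the 8 and 0.06 in the 7 libraries. mt-Nd1, a complex I subunit, had 15890, 325, 707 and 752 CPM with and 292, 369, 1004 and 936 without aspartate. Mitochondrially encoded mRNAs made up 4.31% of reads in replicate 1 and 0.487% to 1.01% in the other 7 libraries, against 4.68% to 7.82% in the sub-polysomal libraries of these 8 pellets.

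Replicate 2 of both conditions stood out for some genes induced by low oxygen. Ero1a, an oxidase of the endoplasmic reticulum and hypoxia target, had 64.0, 458, 66.1 and 68.5 CPM in ASP shSCR and 49.8, 239, 85.1 and 51.2 in NoASP shSCR. Ankrd37, another hypoxia target, had 0.62, 57.7, 1.10 and 3.49 CPM against 3.89, 23.5, 2.50 and 1.41. Pdk1, which keeps pyruvate out of mitochondria, had 28.1, 80.0, 8.94 and 14.3 CPM against 9.77, 37.2, 13.4 and 10.5. In each of these genes replicate 2 was the highest library of its condition and ASP was above NoASP within replicate 2, whereas the other replicates overlapped. The log2 differences of Ero1a, Ankrd37 and Pdk1 in the 7 libraries, 0.87, 1.37 and 0.94, had standard errors of 0.61, 0.97 and 0.59. In the 8 libraries they were 0.63, 1.00 and 0.89, and with ASP shSCR replicate 2 alone left out of the 8 they were −0.68, −2.15 and −0.06. In RPM, Ero1a was also higher in the sub-polysomal library of replicate 2, with 213 in ASP shSCR and 219 in NoASP shSCR, than in those of the other replicates, with 80.9 to 96.5. Replicate 2 was also the highest polysomal library for Ero1a in ASP shGRIN2D, with 107 RPM against 58.9 to 95.5 in the others, and in ASP shDHPS, with 89.2 against 48.3 to 66.1. In their sub-polysomal libraries replicate 1 was the highest, with 142 and 161 against 102 and 123 in replicate 2. The 37 genes of hypoxia and glycolysis had a median difference of 0.11 in the 8, 0.06 in the 7 and −0.11 without ASP shSCR replicate 2. The summed polysomal level of the list was 20100, 15600, 16000 and 16400 CPM in ASP shSCR and 15400, 13900, 14900 and 21000 in NoASP shSCR, lowest in replicate 2 of both. In RPM the polysomal sums were 14100, 17200, 17300 and 17000 in ASP shSCR and 15900, 15900, 14800 and 20600 in NoASP shSCR, where replicate 2 was not the lowest, so the order depended on the scaling. The sub-polysomal sums in RPM were highest in replicate 2 of both, with 7580, 12300, 7010 and 7990 in ASP shSCR and 7190, 9670, 7020 and 7860 in NoASP shSCR. Gapdh, the most abundant of them per length, had 5600, 2033, 2907 and 3080 CPM with and 2613, 1947, 3045 and 3834 without aspartate.

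The chemokine Cxcl1 followed the same pattern among the NF-κB genes, with 127, 469, 95.5 and 130 CPM in ASP shSCR and 122, 229, 78.6 and 99.2 in NoASP shSCR. Tlr2, a receptor for bacterial lipoproteins, had 15.6, 47.5, 14 and 20.1 CPM against 14, 27.9, 12.7 and 19.4. Cxcl1 and Tlr2 differed by 0.79 and 0.54 (log2, standard error 0.45 and 0.36) in the 7 libraries. Gadd45a, a p53 target, likewise had 14.6, 58.4, 13.6 and 19.0 CPM with and 19.1, 31.8, 11.7 and 11.6 without aspartate. For Cxcl1, Tlr2 and Gadd45a, replicate 2 was the highest library of each condition. Their log2 differences were 0.63, 0.39 and 0.51 in the 8 libraries, and −0.17, −0.16 and −0.24 with ASP shSCR replicate 2 alone left out of the 8.

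The hallmark collection of 50 gene sets gave medians nearer 0 than those of the lists above. In the 7 libraries the set medians ran from −0.14 (MYC targets V2, 57 genes counted) to 0.07 (IL6-JAK-STAT3 signaling, 53 genes), and no set held a gene that passed the test. Hallmark TGF-β signaling, with 50 genes counted, had a median of 0.05 in the 8 and 0.00095 in the 7 libraries, and hallmark epithelial-mesenchymal transition, with 109 genes, one of −0.08 and −0.10. Genes with a cAMP response element in the promoter were compared because CREB binds it. The letters TGACGTCA, which read the same on both strands, stood in 588 of 32851 RefSeq promoters of GRCm38 (1.79%) and in the promoters of 323 of 8533 matched genes with a mean of at least 50 reads (3.79%). Those 323 genes had a median log2 difference of 0.04 in the 8 and −0.00075 in the 7 libraries, and the matched genes without these letters had −0.00032 and −0.02. ATF4 elements (TGATGNAAN) were found in 3.95% of promoters and hypoxia elements (NACGTG) in 19.6%, on either strand, and the genes holding them had medians of −0.01 and −0.02 in the 7 libraries. As no gene was called, the share among called genes could not be given.

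Coding length followed the differences across genes. In the 7 libraries the genes in the lowest quartile of coding length, 114 to 864 bases, had a median log2 difference of 0.07, and those in the highest quartile, from 2238 bases, one of −0.08. As a description, Spearman's rho across 10432 genes was −0.291 in the 7 and −0.321 in the 8 libraries, where genes of 1 library share its depth and fraction profile and are not independent. By library, the median deviation of the shortest minus the longest quartile was 0.198, 0.569, −0.131 and −0.328 in ASP shSCR and −0.0572, 0.139, 0.0484 and −0.622 in NoASP shSCR. ASP shSCR replicate 2 and NoASP shSCR replicate 4 held the extremes and the groups overlapped, so the relation did not separate the conditions library by library.

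In the sub-polysomal libraries of the same pellets, 0 of 17605 genes passed between ASP shSCR and NoASP shSCR, with 352 higher and 391 lower at an unadjusted p under 0.05 by edgeR. The log2 difference of the polysomal to sub-polysomal ratio, tested with a term for each pellet, called 0 of 17737 genes, with 136 higher and 159 lower at an unadjusted p under 0.05. Without the pellet of ASP shSCR replicate 1, the sub-polysomal log2 difference of Eif5a was 0.08, beside 0.25 in the polysomes. For Tgfb1 the sub-polysomal value was 0.42 beside 0.26, and for Psma4 −0.28 beside −0.37. Tet2 and Ldlrad4, which had 0.80 and 0.68 in the polysomes, had 0.03 and 0.07 in the sub-polysomal libraries. Both were named for a low p in the polysomes, so a larger polysomal value follows in part from that choice. Their log2 differences of the ratio were 0.76 and 0.60 without that pellet, and neither passed the test. With all 8 pellets the sub-polysomal value of Tet2 was −0.15.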

How the data were processed

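RNA of the polysomal and sub-polysomal fractions of 4T1 spheroid pellets was sequenced. The authors deposited estimated counts per gene, rounded to whole numbers and filtered for expression. According to the submitters' processing notes, Trim Galore 0.6.6, FastQC 0.11.9, STAR 2.6.1, Salmon 1.4.0 and DESeq2 1.34.0 were used, with the GRCm39 build. Deposited tables of the authors' own fold changes and gene set scores were not used. Gene names and positions came from GENCODE M21 (GRCm38) for 17305 of 17757 genes.

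Genes with at least 1 read in the compared libraries were fitted with edgeR 4.0.16 in R 4.3.3 (TMM, quasi-likelihood test, two-sided, Benjamini-Hochberg adjustment, threshold 0.05), for 8 libraries and for 7 without ASP shSCR replicate 1. limma 3.58.1 and DESeq2 1.42.0 served as alternatives. Counts and medians over lists used genes with a mean of at least 50 reads. Genes were named by role in the study, by lowest p, and by abundance, lowest p or groups apart within lists. Ferritin, Tle5, Rplp0, other genes of single libraries and those over 2-fold in both fits were named after their values were seen. The comparison and the lists were chosen with earlier results of these data known. The fits were tested on simulated data that had less spread between replicates than these libraries. The simulation held no library like ASP shSCR replicate 1, so it does not show how the fits perform with such a library. Each library held 16938122 to 21649049 reads, and intervals of 95% came from the spread between pellets.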

Additional observations from a re-analysis of the deposited data

Results flagged for a closer look

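Of 168 groups of 4 libraries tested over the genes named here, 18 held a library far from the other 3, where chance gives about 1 in 20 groups, or 8.4. Several of these genes were named because 1 library stood apart, so the count cannot be read against chance. ASP shSCR replicate 1 was that library in 13 of them.

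In ASP shSCR replicate 1, 8 genes lay far above the other 3 ASP libraries. Fth1 had 62690 CPM there, Ftl1 44120, Rplp0 14500, Odc1 4807, Tle5 4134, Jund 2432, Pla2g12a 163 and Snhg16 24.9. The highest of the other 3 libraries were 1230 for Fth1, 1054 for Ftl1, 975 for Rplp0, 213 for Odc1, 167 for Tle5, 206 for Jund, 12 for Pla2g12a and 4.72 for Snhg16. A further 5 genes lay far below the rest in the same library. Psma6 had 268 CPM, Psma2 208, Orc6 70.4, Mrpl22 33.3 and Gins1 15.4, against lowest values in the other 3 of 355, 316, 89.7, 46.2 and 28.3.

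In ASP shSCR replicate 2, Ero1a had 458 CPM and the others 64 to 68.5. In ASP shSCR replicate 4, the predicted gene Gm11127 had 5.59 CPM and the others 2.69 to 2.98. Among the NoASP shSCR libraries, Eif5a2 was low in replicate 1 at 2.94 CPM (5.51 to 5.97 in the others). In replicate 3, Odc1 was high at 254 CPM (134 to 149) and Orc6 at 125 CPM (97.6 to 101).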

How the results depend on the processing

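The count of called genes was 0 in each direction by edgeR with DESeq2's size factors, upper-quartile scaling, both filters on low counts, all 16 polysomal libraries, the fraction position as a covariate, and by limma-voom. Leaving out each library in turn gave counts from 0 to 0 in each direction. DESeq2's Wald test called 1 gene higher and 0 lower (Gm20431, with 1216 and 154 reads in ASP shSCR replicates 1 and 4 and 0 in the other 6 libraries). Without ASP shSCR replicate 1, DESeq2's Wald test called 1 higher (H2ac12) and 1 lower (Gm49510), and the fraction position as a covariate, chosen after seeing the data for these 7 libraries, called 2 higher (H2ac12 and Gm20431) and 1 lower (Gm49510). H2ac12 had 7, 18 and 26 reads in ASP shSCR replicates 2 to 4 and 0 in NoASP shSCR. Gm49510 had 97, 0, 0 and 0 reads in ASP shSCR and 14, 45, 37 and 50 in NoASP shSCR. These 3 genes were named after their values were seen. The cause of these calls was not tested. A filter of at least 10 reads in each of the 7 libraries, also chosen after seeing the data, called 0 in each direction. The ratio of fractions without ASP shSCR replicate 1 called 1 gene, Gm49510.

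With the replicate block the counts were 0 and 0 in the 8 libraries, and 0 higher and 1 lower (Gm49510) in the 7. The block gave 416 higher and 277 lower genes in the 8 libraries at an unadjusted edgeR p under 0.05. In the 7 these were 370 and 468, against 145 and 125 without the block. The lowest edgeR adjusted p in the 8 was 0.126, against 0.888 without the block. Standard errors and intervals given here came from fits without the block. Deviations of same-numbered libraries correlated at 0.0704, 0.636, −0.13 and 0.524 for numbers 1 to 4, so not every number showed pairing and the replicate block was kept as an alternative. In the 8 libraries numbers 2 and 4 correlated best with their own.

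Over 87 genes and 24 alternatives, 190 of 2058 differences changed sign. Over the 42 lists and the set of all genes, 184 of 1032 medians did. Of these medians 31 moved by more than their spread, 20 of them without ASP shSCR replicate 1.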
